A study of Homo sapiens with 6 samples.

Results

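Processed pseudogenes that gave a measurable RNA signal were followed in NAT10 immunoprecipitates of colorectal cancer (CRC) cells. Members were the genes annotated as processed pseudogene whose FPKM (fragments scaled by transcript length and by library size) was at least 1 in each of 4 libraries, namely RIP SW480, Input SW480, RIP DLD-1 and Input DLD-1. This left 248 of the 10235 processed pseudogenes in a table of 58302 genes. Of these, 64 had a symbol starting with RPL or RPS and were taken as ribosomal protein pseudogenes, and 184 formed the other class. SW480 and DLD-1 are epithelial lines grown from colorectal tumours, both labelled as WT and untreated and kept in DMEM with serum and antibiotics. In each line RNA was sequenced from 1 Input library of total RNA, from 1 library of RNA recovered with an antibody to NAT10 (RIP) and from 1 library recovered with an antibody to N4-acetylcytidine, ac4C (acRIP). There were no replicates, so every difference compares libraries and carries no p-value, and the errors printed beside ratios are counting errors only.

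A processed pseudogene is a copy of a messenger RNA that was reverse transcribed and inserted back into the genome. It usually lacks introns and a promoter of its own, and many copies carry changes that break the reading frame. Genes with abundant, short transcripts, above all those of the ribosome, have left many such copies. NAT10 is the acetyltransferase that places ac4C on ribosomal, transfer and other RNAs, and antibodies to the enzyme or to the mark are used to recover the RNAs concerned. Because a young copy can be almost identical to its parent, reads from both can be hard to tell apart, and the sources used here do not give how reads that align to several places were treated. All member levels below therefore carry that uncertainty, and whether a read came from the copy or from its parent was not tested.

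Whole reads could be recovered from the FPKM steps of all 248 members, and the relative depths of the 4 libraries were 1 in RIP SW480, 0.493 in Input SW480, 0.85 in RIP DLD-1 and 0.456 in Input DLD-1. A member had a median of 123 reads in RIP SW480, 84 in Input SW480, 137.5 in RIP DLD-1 and 67 in Input DLD-1. In Input DLD-1, the shallowest, 43 members rested on fewer than 20 reads. Of 7 epithelial and colorectal marker genes, between 5 and 7 reached 1 FPKM in each library, whereas PTPRC, COL1A1 and PECAM1, which mark blood, stromal and endothelial cells, stayed below 1 in every library. The keratin KRT20 did not pair the libraries by their labels. It was listed at 0 FPKM in RIP SW480 and 0.0427 in Input DLD-1, but at 29.2 in Input SW480 and 23.9 in RIP DLD-1. Each RIP library is therefore named by its label only, and ratios are also given against the Input with the other label.

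A like crossing appeared in RPS26P3 and AK4P1, which were chosen by rule for wide gaps between same-label ratios. That choice favours such a pattern. RPS26P3, a copy of a small-subunit ribosomal protein gene lying inside PTPRD (chr9:9090874-9091312), stood at 4.75 FPKM in RIP SW480, 13.8 in Input SW480, 14.2 in RIP DLD-1 and 1.49 in Input DLD-1. AK4P1, a copy of a mitochondrial adenylate kinase gene inside NF1 (chr17:31345316-31347701), stood at 6.33, 1.83, 2.48 and 11.6 FPKM in the same order. In both, RIP SW480 lay on the side of Input DLD-1 and RIP DLD-1 on the side of Input SW480. RPS18P9, chosen by the same rule, paired by its labels instead, at 3.08, 1.64, 5.78 and 7.41 FPKM in the same order. Across the 248 members the label of the Input made little difference to the likeness of levels. Pearson's r of log2(FPKM + 1) was 0.743 between RIP SW480 and Input SW480 and 0.757 between RIP SW480 and Input DLD-1, 0.758 between RIP DLD-1 and Input SW480 and 0.725 between RIP DLD-1 and Input DLD-1. Both RIP libraries had an r of 0.944 with each other and both Inputs 0.920. These values describe 248 genes that share library depth and partly share sequence.

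The 1 FPKM limit cut through a continuous range. The members closest to it were TPM3P6, whose lowest library stood at 1.001 FPKM, UBE2V1P2 at 1.01 and AL133260.1 at 1.01. RPS15AP38 at 0.996, RPS4XP3 at 0.994 and PA2G4P4 at 0.971 lay just outside. Among all processed pseudogenes 770 were above 0 in all 4 libraries and 3418 in at least 1. A level of at least 1 FPKM was reached by 441 in RIP SW480, 997 in Input SW480, 463 in RIP DLD-1 and 928 in Input DLD-1. Copies present in an Input but under 1 FPKM in a RIP library are not members, so the ratios below do not cover them. Members made up 2.01% of the FPKM sum of RIP SW480, 2.70% of Input SW480, 2.66% of RIP DLD-1 and 2.19% of Input DLD-1.

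To ask how far pseudogene RNA was recovered with NAT10, the ratio of RIP to Input was taken as log2((RIP FPKM + 1)/(Input FPKM + 1)), on which low genes are drawn towards 0. Ratios use the Inputs of the RIP table unless stated. Inputs of a second deposited table put the medians of both classes above 0 in both lines, between 1.49 and 2.25, and turned the direction of most members named here as lowest. Ribosomal protein pseudogenes had a median log2 ratio of −0.23 under the SW480 labels and of 0.78 under the DLD-1 labels. Set over the other label's Input, the medians were 0.23 for RIP SW480 and 0.38 for RIP DLD-1, so the negative value did not hold there. For the 10825 genes of any kind at 1 FPKM or more in all 4 libraries, the medians were 0.17 and 0.08. A ratio of at least 2-fold above Input was seen in 9 of 64 ribosomal protein pseudogenes under the SW480 labels (14.1%, against 17.2% of all genes) and in 30 of 64 under the DLD-1 labels (46.9%, against 17% of all genes). A ratio of at least 2-fold below Input was seen in 22 (34.4%, against 9.7%) and in 8 (12.5%, against 12%).

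Other processed pseudogenes had median log2 ratios of −0.27 under the SW480 labels and −0.02 under the DLD-1 labels, and of −0.14 for both RIP libraries against the other label's Input. At least 2-fold above Input were 29 of 184 under the SW480 labels (15.8%) and 41 under the DLD-1 labels (22.3%). At least 2-fold below were 45 (24.5%) and 37 (20.1%), which is above the 9.7% and 12% of all genes. Members thus spread to both sides, and their quartiles were wider apart than those of all genes. In the other class under the SW480 labels the quartiles were −0.99 and 0.46, against −0.40 and 0.75 for all genes.

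**Figure D1:**
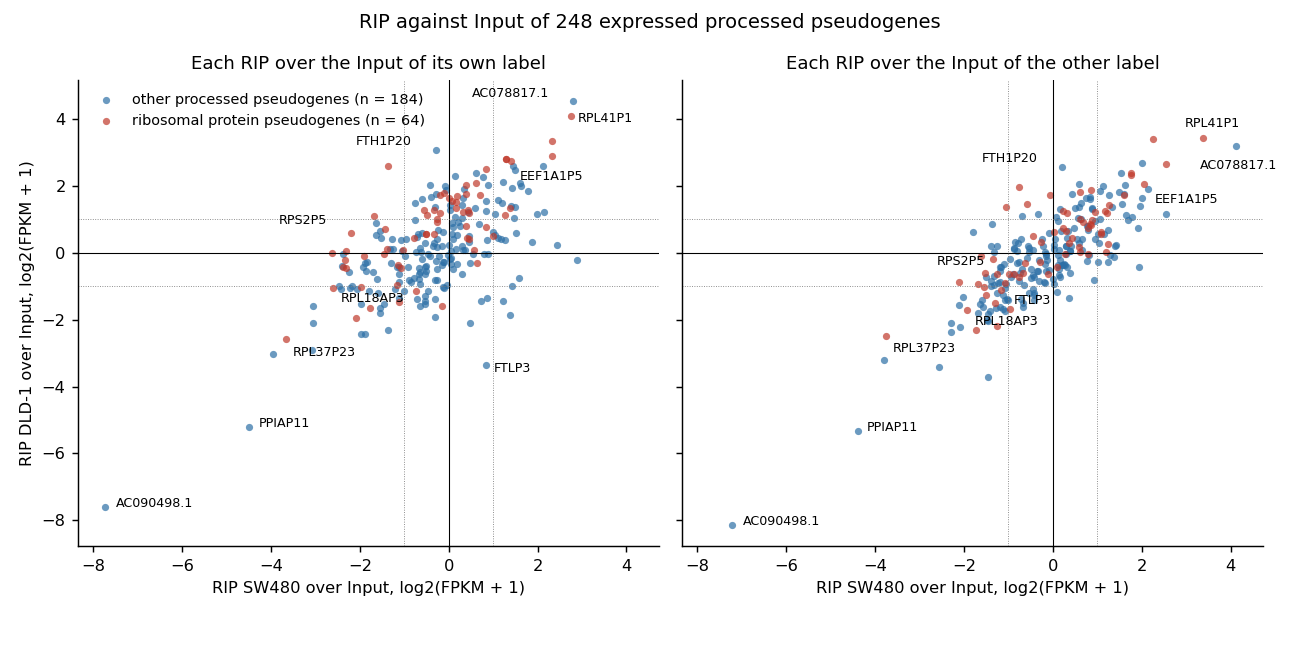
Log2 ratio of RIP to Input, on the log2(FPKM + 1) scale, of each of 248 members in RIP SW480 (horizontal) and RIP DLD-1 (vertical), over the Input of the same label (left) or of the other label (right). Red points are 64 ribosomal protein pseudogenes, blue points 184 others, and dotted lines mark 2-fold; AC090498.1 lies far below 0 on both axes, and members with opposite signs make up 29.4% on the left and 22.2% on the right.

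Both lines together placed 25 members at least 2-fold above Input (8 ribosomal protein, 17 other) and 26 at least 2-fold below (6 and 20). Among all 10825 genes 4.05% were at least 2-fold above in both and 1.56% at least 2-fold below in both. In 4 members the ratio passed 2-fold in opposite directions, as it did in 5.89% of all genes. Over the other label's Inputs it did so in 1 member and in 6 of the 10825 genes. Of the ribosomal protein pseudogenes 19 were below Input under the SW480 labels and above it under the DLD-1 labels, whereas 1 showed the reverse (29.7% and 1.56%, against 21.45% and 25.7% of all genes). Of the 78 cytosolic ribosomal protein genes themselves, 34 showed the first pattern and 0 the second. Opposite signs were seen in 29.4% of all members, against 47.2% of all genes, and in 22.2% when the other label's Input was used, against 19.8%. With the other label's Inputs, 28 members were at least 2-fold above and 36 at least 2-fold below for both RIP libraries (11.3% and 14.5%, against 6.37% and 2.34% of all genes).

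RPL41P1 was the ribosomal protein pseudogene with the most RNA in the RIP libraries. RPL41 encodes a very short basic protein of the large subunit, and its copy lies outside protein-coding genes on chromosome 20 (chr20:21755230-21755652). RPL41P1 stood at 1611 FPKM in RIP SW480, 240 in Input SW480, 2607 in RIP DLD-1 and 154 in Input DLD-1, from 3866, 284, 5319 and 168 reads. Both RIP values lay above both Input values, and the log2 ratios were 2.74 ± 0.09 (counting SE) and 4.08 ± 0.11. RPSAP47, a copy of the small-subunit gene RPSA, stood at 19.9, 3.16, 43.1 and 3.34 FPKM in the same order, with log2 ratios of 2.33 ± 0.23 and 3.35 ± 0.23. RPL21P75 was at 93.4, 18.0, 119 and 15.2 FPKM, with ratios of 2.31 ± 0.13 and 2.89 ± 0.15. RPL7AP6 (1.41 and 2.73) and RPL39P3 (1.39 and 1.34) followed. Of the 5 highest, 4 were copies of large-subunit genes, as were 40 of all 64 ribosomal protein pseudogenes. In all 5, each RIP library lay above both Inputs.

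At the other end were RPL37P23, RPL3P2, RPL37P2, RPL26P19 and RPL18AP3, all copies of large-subunit genes. RPL37P23 stood at 1.95 FPKM in RIP SW480, 36.5 in Input SW480, 5.67 in RIP DLD-1 and 39.1 in Input DLD-1, with log2 ratios of −3.67 ± 0.37 and −2.59 ± 0.25. RPL18AP3, which lies inside TXNRD1 (chr12:104265269-104265892), rested on far more reads, with 2120, 6390, 3325 and 3685 in the same order. It stood at 135.5, 828, 250 and 517 FPKM. Its RIP values lay below both Input values, with ratios of −2.60 ± 0.04 and −1.04 ± 0.03. RPL26P19 showed 124, 273, 143 and 401 FPKM, again with both RIP libraries below both Inputs, and RPL3P2 (−2.09 and −1.95) and RPL37P2 (−1.78 and −1.66) did the same at lower levels.

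Copies were also split by ribosomal subunit. The 40 RPL members had medians of −0.30 and 1.06 under the SW480 and DLD-1 labels, with 5 and 21 members at least 2-fold above Input and 14 and 5 at least 2-fold below. The 24 RPS members had medians of −0.06 and 0.64, with 4 and 9 members at least 2-fold above and 8 and 3 below. Under the SW480 labels more members of either subunit were thus 2-fold below Input than above it. The RPL shares above were 12.5% and 52.5% and the RPS shares 16.7% and 37.5%, against 17.2% and 17% of all genes, and the shares below were 35% and 12.5% and 33.3% and 12.5%, against 9.7% and 12%.

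By the mean of log2 FPKM over the 4 libraries, RPS28P7, RPL41P1 and RPL13AP5 were the most abundant ribosomal protein pseudogenes. RPS28P7 stood at 452 FPKM in RIP SW480, 952 in Input SW480, 840 in RIP DLD-1 and 1154 in Input DLD-1, so it was lower in both RIP libraries, with log2 ratios of −1.07 ± 0.04 and −0.46 ± 0.03. RPL13AP5 stood at 610, 489, 816 and 351 FPKM, higher in both RIP libraries, with ratios of 0.32 ± 0.03 and 1.22 ± 0.03.

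Under the same-label comparison, RPS26P3 had the largest gap between lines, with log2 ratios of −1.36 ± 0.27 and 2.60 ± 0.56, the second resting on 7 reads in Input DLD-1. RPS2P5, inside TAOK3 (chr12:118246061-118247002), had 2562 or more reads in every library and ratios of −2.20 ± 0.03 and 0.58 ± 0.03. It stood at 109 FPKM in RIP SW480, 505 in Input SW480, 324 in RIP DLD-1 and 216 in Input DLD-1. Against the other label's Input its ratios were −0.98 and −0.64, on the same side for both RIP libraries. In the opposite direction RPS18P9 had ratios of 0.63 ± 0.49 and −0.31 ± 0.28, and RPS7P10 of −0.14 ± 0.21 and −1.59 ± 0.17, where 3 of these 4 values lay within 2 counting errors of 0.

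In the other class, AC078817.1, H3F3AP4, PDIA3P1, AC115223.1 and AC009244.1 were the highest. AC078817.1 stood at 46.2 FPKM in RIP SW480, 5.82 in Input SW480, 61.8 in RIP DLD-1 and 1.70 in Input DLD-1, and its log2 ratios were 2.79 ± 0.24 and 4.54 ± 0.46, with 10 reads in the last library. H3F3AP4, a copy of a histone H3.3 gene, stood at 149, 33.6, 223 and 36.2 FPKM, with ratios of 2.12 ± 0.11 and 2.59 ± 0.11. PDIA3P1, a copy of the gene of a disulfide isomerase of the endoplasmic reticulum, had ratios of 1.79 ± 0.21 and 1.84 ± 0.24. The current symbol of AC115223.1 is RPL6P10 (1.63 and 2.01) and that of AC009244.1 is CDC26P1 (1.61 and 2.08), the latter named for a subunit of the anaphase-promoting complex. In each of these 5 members, too, both RIP values lay above both Inputs.

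The lowest member of all was AC090498.1, for which the reference names gave no gene symbol. It stood at 24.8 FPKM in RIP SW480, 5508 in Input SW480, 18.5 in RIP DLD-1 and 3816 in Input DLD-1, from 55, 6038, 35 and 3863 reads. Its log2 ratios were −7.74 ± 0.20 and −7.61 ± 0.24. PPIAP11, a copy of the cyclophilin A gene inside ATG10 (chr5:82009390-82010135), stood at 4.79, 129, 2.25 and 120 FPKM, with ratios of −4.49 ± 0.18 and −5.22 ± 0.28. AL121871.1, now RPL26P36 (−3.96 ± 0.31 and −3.04 ± 0.24), and AC136632.1 (−3.07 ± 0.18 and −2.91 ± 0.23) came next. AC016596.1 (−3.06 ± 0.56 and −2.11 ± 0.84) rested on 8, 37, 4 and 11 reads. Each RIP value of these 5 members lay below both Input values.

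EEF1A1P5, a copy of the gene of the elongation factor that brings aminoacyl-tRNA to the ribosome, had the most reads of all members in both RIP libraries. It stood at 507 FPKM in RIP SW480, 185 in Input SW480, 698 in RIP DLD-1 and 115 in Input DLD-1, with log2 ratios of 1.45 ± 0.03 and 2.60 ± 0.03. AL450405.1, now RPL29P4, was also among the 3 most abundant of this class by mean log2 FPKM, at 124, 166, 344 and 83.5 FPKM, with ratios of −0.41 ± 0.05 and 2.03 ± 0.07. ANXA2P2, a copy of the annexin A2 gene, stood at 67.5, 48.9, 66.0 and 46.2 FPKM, and both of its ratios were small, at 0.46 ± 0.06 and 0.51 ± 0.07.

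Ferritin copies held the widest differences between lines of the other class. FTLP3, from the ferritin light chain gene, stood at 21.9 FPKM in RIP SW480, 11.8 in Input SW480, 3.76 in RIP DLD-1 and 47.3 in Input DLD-1. Its log2 ratios were 0.84 ± 0.17 and −3.34 ± 0.22, and those of its parent FTL were 3.68 and −1.56. Against the other label's Input FTLP3 was at −1.07 and −1.43, below 0 for both RIP libraries. FTH1P20, from the ferritin heavy chain gene, went the other way, with 3.88, 4.99, 34.4 and 3.24 FPKM and ratios of −0.30 ± 0.29 and 3.06 ± 0.30, so that RIP DLD-1 alone stood apart from the other 3 libraries. AK4P1 had ratios of 1.37 ± 0.63 and −1.85 ± 0.46, from as few as 6 reads, and −0.78 and 0.30 against the other label's Input. AC064799.1, now RPL17P39, had ratios of −1.64 ± 0.21 and 0.89 ± 0.20.

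Some members of the other class are ribosomal protein pseudogenes under another name. Of 68 members listed under a clone name, 23 carry a current symbol that starts with RPL or RPS, and 35 have none other than the gene ID. The 23 had median log2 ratios of −0.12 under the SW480 labels and 0.53 under the DLD-1 labels. The 161 members of the other class without such a symbol had medians of −0.28 and −0.05. Among the 23, BX679664.3 (RPL17P7) stood at 102, 66.1, 221 and 41.65 FPKM in RIP SW480, Input SW480, RIP DLD-1 and Input DLD-1, and AC005912.1 (RPS27P3) at 90.9, 82.6, 252 and 50.55. For both, the ratio was small under the SW480 labels (0.62 and 0.14) and above 2-fold under the DLD-1 labels (2.38 and 2.30).

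Members of the other class were also grouped by what their parent genes do, which placed 75 of 184. Copies of translation factor genes (14 members) had medians of 0.19 and 0.82, with 4 and 7 members at least 2-fold above Input (28.6% and 50%, against 17.2% and 17% of all genes) and 1 and 1 below (7.14% in either line, against 9.7% and 12%). Besides EEF1A1P5 this group held EIF4BP3 (0.58 and 1.35) and EEF1A1P13 (−3.06 and −1.58), the latter being the single member below in both. Copies of chaperone and prolyl isomerase genes (8 members) had medians of −1.44 and −0.39, with 6 and 2 members at least 2-fold below (75% and 25%, against 9.7% and 12% of all genes) and 0 and 1 above. Among them were HSP90AA2P (−1.88 and −0.30), HSP90AB3P (−1.32 and 0.12) and PPIAP31 (−1.62 and −0.78).

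The remaining groups held 1 to 15 members each. RNA-binding and splicing copies (11 members) were at 0.03 and −0.29, copies of high mobility group and chromatin genes (15 members) at −0.46 and 0.21, and ferritin and redox copies (6 members) at 0.08 and −0.32. Cytoskeletal copies (7 members) were at −0.46 and −0.57. At least 2-fold below were 3 and 3 (42.9% in either line, against 9.7% and 12% of all genes). At least 2-fold above were 0 and 1 (0% and 14.3%, against 17.2% and 17%). Under the SW480 labels the 3 members below were the copies of KRT8. Copies of mitochondrial protein genes (5 members) were at −0.76 and 0.32, of ubiquitin and proteasome genes (4 members) at 0.43 and 0.86, and of genes for annexins, 14-3-3 and signalling proteins (4 members) at −0.86 and −0.30. Glycolysis had 1 member, TPI1P1, at 0.15 and 0.13. With 4 to 15 members a median describes little more than its members.

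Each member was then set beside the gene it was copied from, found by its symbol for all 64 ribosomal protein pseudogenes (36 parents) and for 104 of the others (82 parents). In RIP SW480 the level of a ribosomal protein pseudogene was at a median of 6.76% of its parent's FPKM, against 15.4% in Input SW480, 6.29% in RIP DLD-1 and 10.8% in Input DLD-1. For the other class the medians were 7.83%, 16.2%, 8.16% and 16%. The share was thus lower in both RIP libraries than in both Inputs of the RIP table, in each class. In the Inputs of the second table the medians were 1.27% (SW480) and 1.46% (DLD-1) for ribosomal protein pseudogenes and 0.998% and 1.385% for the others, so against those Inputs the RIP shares were the higher ones. With the Inputs of the RIP table, the log2 ratio of the copy minus that of its parent had a median of −0.44 and −0.73 for ribosomal protein pseudogenes (38 and 46 of 64 lay below their parent) and of −0.61 and −0.58 for the others (77 and 71 of 104). With the second table's Inputs all 4 of these medians were above 0, between 1.24 and 1.77. For ribosomal protein pairs the parents' own medians, counted once per pair, were −0.05 and 1.38.

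In 14 members, 7 of each class, the copy stood above its parent in all 4 libraries of the RIP table. RPL41P1 and RPL41P5 were among them, since RPL41 itself stood at 183 FPKM in RIP SW480, 47.4 in Input SW480, 333 in RIP DLD-1 and 30.4 in Input DLD-1, and RPL41P5 at 295, 191, 521 and 123. RPL39P3 stood at 398, 152, 560 and 220 FPKM beside 11.3, 17.3, 18.6 and 11.0 for RPL39. H3F3AP4 stood above H3F3A, which was at 6.81, 14.2, 10.2 and 8.51 FPKM. The others were RPL13AP5, RPL14P1, RPL26P19, RPS28P7, BTF3L4P2, EIF4EP2, GCSHP5, LSM12P1, MEMO1P1 and SPCS2P4. In the second table's Inputs only RPS28P7 stood above its parent under both labels, at 225.8 and 359 FPKM beside 96.5 and 61.5. EIF4EP2 did so under the SW480 label alone, and GCSHP5 and MEMO1P1 under the DLD-1 label alone. RPL39P3 stood at 18.05 and 14.2 FPKM there, beside 82.7 and 72.1 for RPL39.

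Over the Inputs of the RIP table, copies of the same gene differed widely from one another. There were 15 parents with 3 or more members, 7 of them ribosomal protein genes. RPSA had 5 copies, whose log2 ratios ran from −2.32 (RPSAP15) to 2.33 (RPSAP47) under the SW480 labels and from −1.16 (RPSAP19) to 3.35 (RPSAP47) under the DLD-1 labels, while RPSA itself was at 0.47 and 2.02. RPSAP15 stood at 15.2, 79.5, 32.2 and 44.5 FPKM and RPSAP58 at 51.4, 260, 120 and 116, both lower in RIP SW480 than in either Input. EEF1A1 showed the same spread within the other class, from EEF1A1P13 (5.83, 55.95, 10.1 and 32.3 FPKM) to EEF1A1P5, with EEF1A1 at 1.22 and 2.17. PPIA had PPIAP11 far below Input and PPIAP22 (32.5, 26.2, 34.9 and 16.4 FPKM) slightly above it, at 0.30 and 1.05. Over the second table's Inputs PPIAP11 moved to 0.94 and 1.08, RPSAP19 to 0.35 and 0.50 and RPSAP47 to 4.38 and 5.46. Ranges of whole families over those Inputs are not given here.

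FTH1 also had 5 copies, from −1.37 (FTH1P8) to 1.86 (FTH1P2) under the SW480 labels and from −2.30 (FTH1P8) to 3.06 (FTH1P20) under the DLD-1 labels. FTH1P8, the most abundant, stood at 86.3, 224, 75.8 and 376 FPKM, below both Inputs in both RIP libraries. Other families lay closer together. The copies of NPM1, a nucleolar chaperone gene, were at −0.91 to −0.65 and at −0.93 to −0.43, all below their parent, which was at 0.98 and 0.44. The 3 copies of KRT8 (−2.24 to −1.12 and −1.16 to −0.43), the keratin gene, were all below 0, as was KRT8 under the SW480 labels (−2.05) but not under the DLD-1 labels (0.03). With the Inputs of the RIP table, all copies of RPS2 and RPS3A lay below their parents in both lines. RPS2 was at 1.26 and 1.99 there and RPS3A at 1.62 and 2.76. RPS3AP5 moved from 0.17 and 1.52 to 1.21 and 2.365 over the second table's Inputs. Ratios of copies and parents of single families are not compared here over those Inputs.

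**Figure D2:**
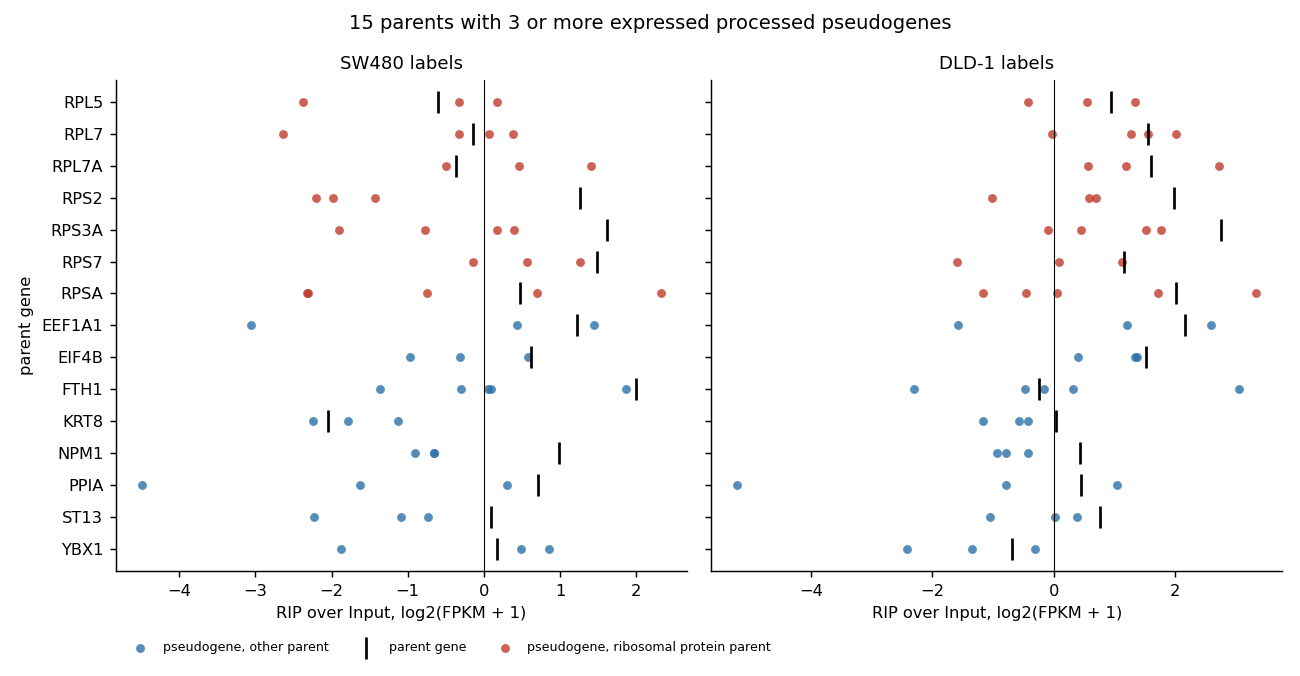
Log2 ratio of RIP to Input, on the log2(FPKM + 1) scale, of the 51 members whose parent gene has 3 or more expressed copies, by parent, under the SW480 labels (left) and the DLD-1 labels (right). Red points are ribosomal protein pseudogenes, blue points others and black bars the parent genes; copies of RPSA run from −2.32 to 2.33 on the left, while those of NPM1 lie within −0.91 to −0.65.

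The direction of these ratios depended on which deposited Input was used. A second table, deposited with the acRIP data, gives values for 2 Inputs with the same labels, in which members stood far lower. Relative depths solved from its steps were 0.3715 (Input SW480) and 0.3651 (Input DLD-1), against 0.4933 and 0.4556 in the RIP table. Whether both tables rest on the same sequenced libraries is not given in the sources used here. The median Input SW480 level of ribosomal protein pseudogenes was 15.4 FPKM in the RIP table and 2.08 in the acRIP table, and that of Input DLD-1 12.6 and 1.90. For other processed pseudogenes the medians were 6.53 and 0.947 in Input SW480 and 5.80 and 0.696 in Input DLD-1. The log2 difference, acRIP table over RIP table, had a median of −1.90 in Input SW480 and −1.77 in Input DLD-1 over all members, against −0.48 and −0.54 over 9912 protein-coding genes. At least 1 FPKM in both acRIP-table Inputs was reached by 101 of 248 members and by 9382 of 9912 protein-coding genes, and 19 members were listed at 0 in both. Both sets were chosen by their levels in the RIP table alone. Members also lay nearer its limit, with Input medians of 8.17 (SW480) and 6.89 (DLD-1) FPKM, against 10.53 and 10.9 for protein-coding genes. The part of this choice in the fall, and in ratios over the acRIP-table Inputs, was not tested.

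Single members showed where the difference lay. RPL13AP5 stood at 489 and 351 FPKM in Input SW480 and Input DLD-1 of the RIP table but at 4.45 and 5.59 in the acRIP table, whereas RPL13A stood at 192 and 180 and at 432 and 354. RPL41P1 stood at 240 and 154 against 37.0 and 53.6, whereas RPL41 stood at 47.4 and 30.4 against 737 and 453. PPIAP11 stood at 129 and 120 against 1.47 and 0.375. For RPL13A and RPL41 the copy was lower and the parent higher in the acRIP table, whereas PPIA, the parent of PPIAP11, was lower there too (123.5 and 141 against 89.9 and 101). Higher parents were not the rule. Over the 118 parents of members the log2 difference had a median of −0.31 and −0.44, with 13 and 11 at least 2-fold higher and 16 and 16 at least 2-fold lower in the acRIP table. EEF1A1P5 (185 and 115 against 133 and 77.9) and RPS2P5 (505 and 216 against 363 and 131) changed much less. Neither source says how the tables differ in their libraries or processing, and the part of read assignment in this difference was not tested.

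Set against the acRIP table's Inputs, after scaling over genes found in both tables, the medians were 1.77 and 2.25 for ribosomal protein pseudogenes and 1.49 and 1.505 for the others. At least 2-fold above Input were then 156 of 248 members under the SW480 labels and 174 under the DLD-1 labels, against 22.5% and 21.4% of all genes. RPL18AP3 moved from −2.60 and −1.04 to 5.56 and 4.30, and PPIAP11 from −4.49 and −5.22 to 0.94 and 1.08. AC090498.1 stayed below Input, at −4.57 and −3.69, from Inputs of 444.5 and 175 FPKM. RPL41P1 (4.96 and 5.07), RPSAP47 (4.38 and 5.46), H3F3AP4 (2.02 and 4.15) and EEF1A1P5 (1.46 and 2.64) lay above Input in either table.

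**Figure D3:**
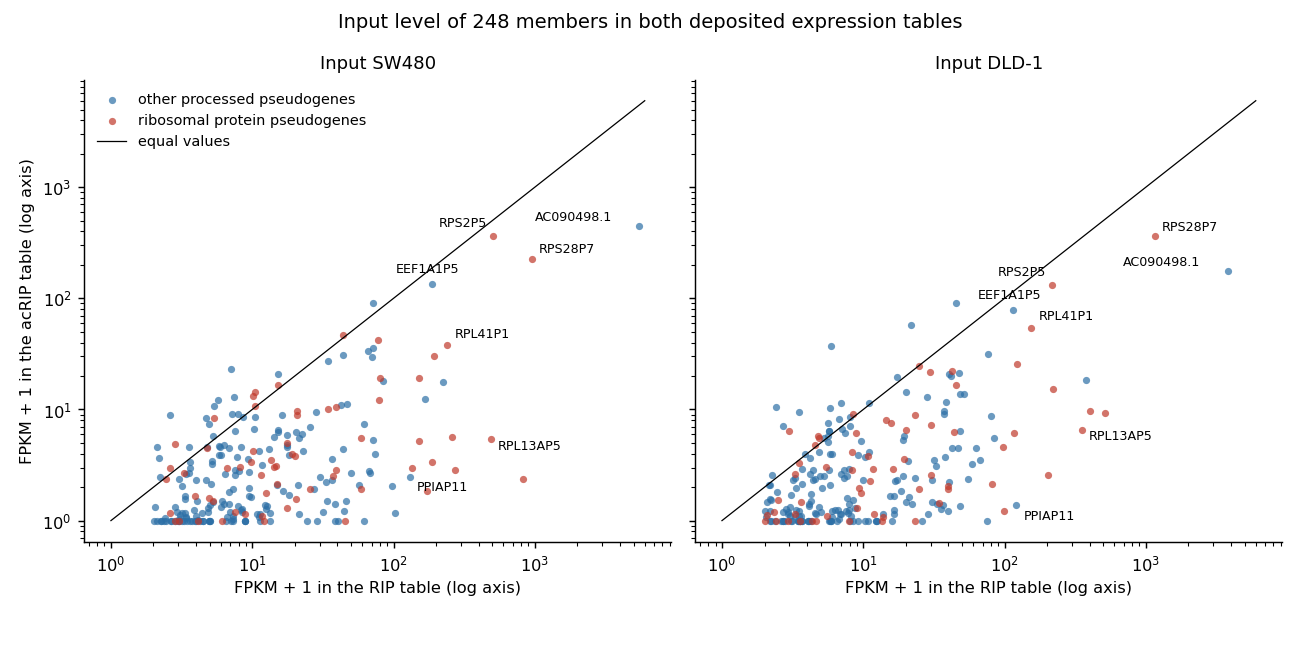
Level of each of 248 members, as FPKM + 1 on log axes, in the RIP table (horizontal) and the acRIP table (vertical), for Input SW480 (left) and Input DLD-1 (right). Red points are ribosomal protein pseudogenes, blue points others and the line marks equal values; most members lie below the line, RPL13AP5 at 489 against 4.45 FPKM on the left, while EEF1A1P5 lies close to it.

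Members were also looked up in the deposited ac4C peak lists. The list pooled over both lines named 66 of 248 members, against 61.5% of all genes. In the list of acRIP SW480, 20 of 64 ribosomal protein pseudogenes held a peak (31.25%, 95% Wilson interval 21.2 to 43.4) and 20 of 184 others (10.9%, 7.15 to 16.2), against 49.3% of all 10825 genes. In the list of acRIP DLD-1 it was 18 (28.1%, 18.6 to 40.1) and 22 (12%, 8.03 to 17.4), against 54.8% of all genes. These intervals treat genes as independent, although copies can share reads, and they cover no variation between libraries. Members with a peak were the more abundant ones. Their mean FPKM over the 4 libraries had a median of 29.8 for the SW480 list and 28.6 for the DLD-1 list, against 6.09 and 6.25 in members without one. Peaks were listed in both lines for 27 members, of which 14 were ribosomal protein pseudogenes, and in the SW480 or the DLD-1 list alone for 13 and 13. These are 10.9%, 5.24% and 5.24% of members, against 38.7%, 10.5% and 16.02% of all genes.

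**Figure D4:**
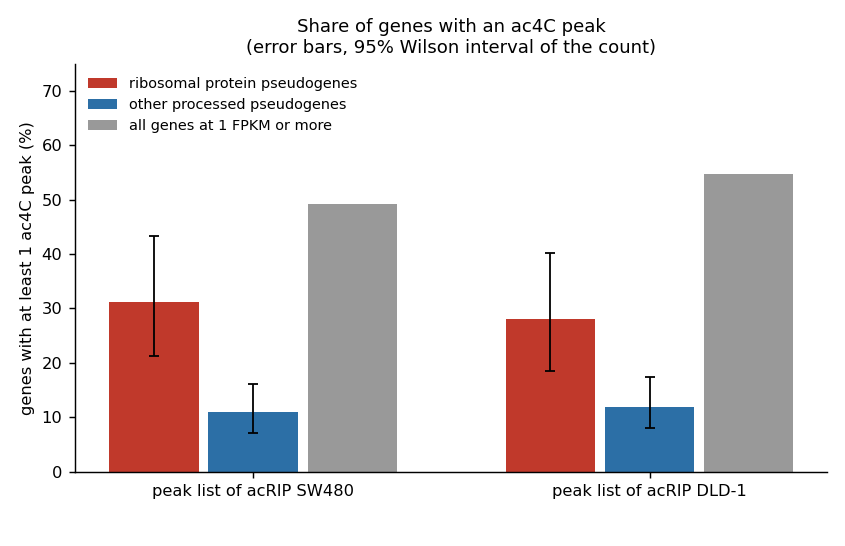
Percent of genes with at least 1 listed ac4C peak in the lists of acRIP SW480 and acRIP DLD-1, for 64 ribosomal protein pseudogenes (red), 184 other processed pseudogenes (blue) and 10825 genes of any kind at 1 FPKM or more (grey). Error bars are 95% Wilson intervals of the counts, which treat genes as independent and cover no variation between libraries. The red bars stand at 31.25% and 28.1%, above the blue bars at 10.9% and 12% and below the grey bars.

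All listed member peaks lay in exons. The authors' fold over Input had a median of 9.37 over the 40 member peaks of the SW480 list and of 10.2 over the 43 of the DLD-1 list, against 19.5 and 14.6 over all peaks. A 12-base pattern with 4 evenly spaced Cs was counted by the authors in 22 of the 40 and 20 of the 43, and in 56.2% and 55.1% of all peaks. The parent of a member with a peak nearly always held one too, in 28 of 29 pairs of the SW480 list and in 26 of 27 of the DLD-1 list. The exception was RPS28P7 in both. Of all genes, 49.3% and 54.8% held a peak. The share among parents of members without a peak is not given here, and a link between copy and parent was not tested. Whether these peaks came from the copy or from its parent was not tested.

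RPS28P7 held the member peak of highest fold in the SW480 list, at chr11:82689649-82689768 (GRCh38, plus strand), with 228 there, 18 in the DLD-1 list and 79.9 in the pooled list. RPSAP19, with a peak of 68.7, 35.4 and 96.9 in the same order starting at chr1:101786369 on the minus strand, was the highest member of the DLD-1 and pooled lists, although its own RIP ratios were below 0, at −0.74 and −1.16. RPS20P14 held one at chr3:186900318-186900527, of 34.1 and 29.9, and its RIP ratios were 1.28 ± 0.19 and 2.81 ± 0.23. RPS26P3 (22.9 and 25.2) and RPL21P75 (18.2 and 28.3) followed. Next by the smaller of both folds came AC026403.1, now RPLP0P9 (48.9 and 14.2), RPS3AP5 (27.1 and 10.2), AC016739.1 (18.7 and 9.44), COX6A1P2 (9.37 and 11.8) and TUBAP2 (9.37 and 8.65).

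Peak hosts did not share a direction in RIP. AC016739.1 was below Input in both lines (−1.97 and −1.53), RPS3AP5 slightly above (0.17 and 1.52), TUBAP2 near 0 (0.01 and 0.23), and COX6A1P2, a copy of a cytochrome c oxidase gene, at −0.76 and 1.49. The median log2 ratio of members with and without a peak was −0.20 and −0.27 under the SW480 labels and 0.60 and 0.08 under the DLD-1 labels. The median Input level differed as well, at 22.8 against 6.85 FPKM and at 15.8 against 6.0.

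By symbol, 211 members could be placed on the RefSeq annotation of GRCh38.p14, on 23 chromosomes. Ribosomal protein pseudogenes had a median length of 703 bases (63 placed) and others of 1230 bases (148 placed). Inside the span of another, protein-coding gene lay 19 of the 63 and 58 of the 148. The median log2 ratios of members inside and outside such genes were −0.34 and −0.15 under the SW480 labels and 0.23 and 0.29 under the DLD-1 labels. Strand is not given there, so whether a copy and its surrounding gene run the same way was not examined.

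Several well-known pseudogenes did not qualify as members. PTENP1 is annotated in the separate class of transcribed processed pseudogenes, of which 20 of 462 reached 1 FPKM in all 4 libraries, and stood at 0.144, 0.342, 0.0894 and 0.0185 FPKM. KRASP1 was listed at 0 in every library, as was NANOGP8, which the table classes as protein-coding. DUXAP8 is listed under 2 gene IDs, one at 0 throughout and one, classed as a processed transcript, at 2.497, 0, 0.163 and 2.04 FPKM.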

How the data were processed

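RNA of SW480 and DLD-1 was measured in 6 libraries, grouped by the submitters' titles, with 1 library per group. The deposited values are FPKM in 2 tables, scaled to gene length and library size by the authors (the unit of the acRIP table is not named and was read from its steps). Per the labels, cutadapt 2.5 and HISAT2 2.1.0 were used and GRCh38 is among the builds; the counting tool, strand and treatment of multiply aligned reads are not given in the sources used here. The deposited peak lists give counts of a C-rich pattern, p-values, a fold ratio over Input and a log10 FDR score whose unreadable cells were taken as below the limit; peak starts were moved by 1 base. Columns of the authors' RIP to Input ratios were not used.

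Ratios were log2((RIP + 1)/(Input + 1)). The acRIP-table Inputs were multiplied by 1.37 (SW480) and 1.43 (DLD-1), the median ratio over genes above 1 in both tables. Whole reads were solved from FPKM steps (tolerance at most 0.01 read, smallest solution; tested on simulated data), and counting errors of a log2 ratio were taken from them; they cover counting error only. Parents were found by removing P and its number from the symbol. Of 248 gene IDs, 247 had an entry in the reference names. For 35 clone-named members no current symbol other than the gene ID was available. With 1 library per group no test was run. Members and lists were chosen with earlier results of these data known. Members are named by rule: in each class, the 5 members farthest above and the 5 farthest below Input by the ratio closer to 0, among those with 1 sign in both lines, the 3 most abundant, the 2 widest gaps between lines in each direction, the 10 strongest peaks shared by both lines, parents with 3 or more members, the members nearest the limit, and 6 symbols; further examples of parent groups, families and clone names were chosen after their values were seen. Alternatives were other pseudocounts, FPKM and read limits, centring, other Inputs, other class rules and an FDR limit of 0.05. Python 3.11.15 with numpy 2.4.6, pandas 2.3.3 and scipy 1.17.1 was used.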

Additional observations from a re-analysis of the deposited data

Results flagged for a closer look

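These results lay on opposite sides of Input in both lines, over the same label's Inputs of the RIP table. The median log2 ratio of RIP to Input of ribosomal protein pseudogenes, SW480 minus DLD-1, was −1.02. Both ratios lay more than 1.96 counting errors from 0, on opposite sides, in 29 of 248 members. Of these, 20 were below Input under the SW480 labels and 9 above. Reads were solved for processed pseudogenes only, so the same share over all genes was not available. By sign alone, ratios were opposite in 29.4% of members, against 47.2% of all genes. Of these 29, 7 are named by the rule for named members, and their difference was −3.96 for RPS26P3, −2.78 for RPS2P5, −2.45 for AL450405.1, 3.22 for AK4P1, 4.18 for FTLP3, −2.54 for AC064799.1 and −2.25 for COX6A1P2. With 1 library per group none of these differences was tested. The RIP and Input libraries did not pair by their labels in genes such as KRT20, CDX2 and EPCAM. Nor did they in RPS26P3 and AK4P1, which were chosen for wide gaps between same-label ratios. The part of the labels in these differences was not tested. Against the other label's Input the log2 ratios were on 1 side for RPS26P3 (1.21 and 0.04), RPS2P5 (−0.98 and −0.64), AL450405.1 (0.57 and 1.05) and FTLP3 (−1.07 and −1.43), and on opposite sides for AK4P1 (−0.78 and 0.30), AC064799.1 (−0.81 and 0.05) and COX6A1P2 (1.01 and −0.28).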

How the results depend on the processing

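Values are given for the SW480 and then the DLD-1 labels. Pseudocounts of 0.1 or 0, the class by parent gene and the class by current symbol kept each median within its order-statistic interval and each count within 1.5 times, as did an FDR below 0.05 for the peak counts. Input of the other label turned the ribosomal protein median to 0.23, moved the DLD-1 one to 0.38 and the SW480 count of ribosomal protein members 2-fold above to 14. It also turned 9 of the 40 members named by rule, in both lines RPS18P9 (−1.04 and 1.36), AK4P1 (−0.78 and 0.30) and COX6A1P2 (1.01 and −0.28), in SW480 RPS26P3 (1.21), AL450405.1 (0.57), FTLP3 (−1.07) and FTH1P20 (0.20), and in DLD-1 RPS2P5 (−0.64) and AC026403.1 (−0.077).

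Inputs of the acRIP table gave medians of 1.77 and 2.25 (ribosomal protein) and 1.49 and 1.505 (other), and of copy minus parent of 1.77 and 1.36 (ribosomal protein) and 1.39 and 1.24 (other). At least 2-fold above were 40 and 50 ribosomal protein and 116 and 124 other members, and below 7 and 0 and 21 and 18. Inputs of that table with the other label, an alternative chosen after seeing the data, gave medians of 1.89 and 2.33 and of 1.58 and 1.61, counts above of 43 and 47 and of 125 and 122, and counts below of 2 and 1 and of 20 and 16. Of the 40 members, 17 turned over the same-label acRIP-table Inputs. In both lines these were RPL3P2 (1.55 and 1.67), RPL37P2 (0.079 and 1.33), RPL26P19 (5.14 and 3.43), RPL18AP3 (5.56 and 4.30), PPIAP11 (0.94 and 1.08), AL121871.1 (1.15 and 1.89), AC016739.1 (1.75 and 1.86), RPS28P7 (0.54 and 0.71), RPS7P10 (2.75 and 1.84) and RPSAP19 (0.35 and 0.50), in SW480 alone RPS26P3 (0.57), AL450405.1 (2.90), FTH1P20 (1.75) and COX6A1P2 (2.43), and in DLD-1 alone RPL37P23 (1.51), AC136632.1 (1.29) and AK4P1 (1.80). The cause was not tested.

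A limit of 5 FPKM left 37 ribosomal protein and 60 other members, so counts dropped to 8 and 16 above and 15 and 13 below (other) and, in DLD-1, 18 above and 4 below (ribosomal protein), and the other median turned to 0.13 in DLD-1. A limit above 0 admitted 125 and 645 genes, with 61 and 85 above and 172 and 143 below (other), 38 and 18 below (ribosomal protein), a ribosomal protein median of 0.31 in DLD-1 and an other copy minus parent median of −0.86 in DLD-1. Requiring 20 reads left 18 other members above in SW480. Centring on protein-coding genes (medians 0.20 and 0.11) moved the other median to −0.47 in SW480, and leaving out the 3 members of clone AC018638, chosen after seeing the data, turned it to 0.022 in DLD-1. No paired test was run. The labels give no replicate numbers, and the line labels did not pair RIP with Input in every gene. RIP against Input blocked by line would leave 1 residual degree of freedom. With 1 library per group none was left out. Depth limited the members under 20 reads, whose counting errors can exceed 0.5 on the log2 scale.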
